A study of Mus musculus with 2 samples.

Results

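Trophoblast, the outer lineage of the mouse conceptus that builds the placenta, is specified and maintained by a small set of transcription factors. A set of 10 genes, named trophoblast regulators and placental genes, was followed here in mouse embryonic fibroblasts (MEFs) after knockdown of the lncRNA AK156230. The set held 8 transcription factor genes, Gata2, Gata3, Tfap2a, Tfap2c, Cdx2, Eomes, Elf5 and Hand1, and genes for 2 secreted proteins, the growth factor Pgf and the protease Mcpt8. The members were the probe sets whose platform annotation names exactly 1 of these genes, which gave 19 probe sets for 10 genes, out of 45037 probe sets and 18193 named genes on the array. A probe set is a group of short oligonucleotides that together report 1 transcript. The set was chosen by the log2 ratios that some of its genes had shown in this same comparison, so everything said of these ratios is a description and none of it is a test.

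The cells were primary fibroblasts grown from whole embryos of C57BL/6 mice at embryonic day 13.5 and used young, at passage 2. Control cells (GapmeR Control) had received a non-targeting scrambled GapmeR, and knockdown cells (GapmeR AK156230) a GapmeR against the lncRNA. A GapmeR is an antisense oligonucleotide with locked nucleic acid ends that leads RNase H to its RNA target. Nothing else distinguished the groups in the labels, and each was represented by 1 array. There was therefore no replicate spread against which to set a difference. Among the probe sets with a listed gene none was assigned to the lncRNA, so its own level was not read here. The time between transfection and RNA extraction for the arrays is not given in the sources used here. A culture from whole embryos is a mixture, and in its bulk RNA a change in the number of cells of a type and a change in RNA per cell cannot be told apart.

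CDX2, TFAP2C, GATA3 and EOMES are known for setting up and keeping the trophectoderm and the trophoblast stem cell state, in which ELF5 also acts. HAND1 drives the formation of trophoblast giant cells, and GATA2 with GATA3 activates placental hormone genes there. Outside the placenta most of these factors have other duties, GATA2 in blood, GATA3 and EOMES in lymphocytes, TFAP2A in neural crest and skin, CDX2 in gut, HAND1 in heart and ELF5 in mammary gland. PGF, placental growth factor, is a ligand of the VEGF family that binds the receptor FLT1 and neuropilins. MCPT8 is a granule serine protease known from basophils.

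The genes with a probe set higher by 2-fold or more in knockdown cells were Gata3, Eomes, Pgf and Mcpt8, and the 250 bases upstream of their RefSeq start sites are shown so that the control regions of these genes can be read beside their values. The sequences are from RefSeq for GRCm38.p6, each on the strand of its gene, at chr2:9878601-9878850 for Gata3, chr9:118477939-118478188 for Eomes, chr12:85177314-85177563 for Pgf and chr14:56085198-56085447 for Mcpt8. For Pgf, which had 2 windows, the one nearer the 5′ end of the gene is printed. The Gata3 window precedes a start site inside the gene, 9353 bases from its 5′ end. Capitals mark the AP-2 motif GCCNNNGGC, which reads the same on both strands, and the GATA motif GATAA on either strand.
Gata3: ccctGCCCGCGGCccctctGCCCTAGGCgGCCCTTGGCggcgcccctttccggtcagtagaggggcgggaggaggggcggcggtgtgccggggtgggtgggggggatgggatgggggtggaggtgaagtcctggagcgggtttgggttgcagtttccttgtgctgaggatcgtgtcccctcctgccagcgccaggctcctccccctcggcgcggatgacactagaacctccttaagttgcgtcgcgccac
Eomes: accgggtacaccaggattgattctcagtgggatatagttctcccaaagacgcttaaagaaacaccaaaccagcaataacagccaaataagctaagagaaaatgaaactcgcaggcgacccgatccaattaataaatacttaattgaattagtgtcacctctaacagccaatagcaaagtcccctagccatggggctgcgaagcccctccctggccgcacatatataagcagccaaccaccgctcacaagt
Pgf: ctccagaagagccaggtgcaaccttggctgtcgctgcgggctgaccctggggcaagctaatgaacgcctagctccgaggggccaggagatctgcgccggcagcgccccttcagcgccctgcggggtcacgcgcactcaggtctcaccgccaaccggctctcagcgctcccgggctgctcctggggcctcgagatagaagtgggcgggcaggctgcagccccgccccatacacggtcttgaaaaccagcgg
Mcpt8: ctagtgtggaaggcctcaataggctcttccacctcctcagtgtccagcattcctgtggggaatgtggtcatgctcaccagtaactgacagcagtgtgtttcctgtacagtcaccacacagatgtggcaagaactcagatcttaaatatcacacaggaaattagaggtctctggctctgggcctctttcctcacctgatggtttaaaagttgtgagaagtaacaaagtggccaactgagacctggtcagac
The Gata3 window held GCCNNNGGC 3 times, and the other 3 printed windows held neither motif. Of 32851 RefSeq windows of this length 13.7% held GCCNNNGGC and 22.6% held GATAA on either strand. Promoter windows were found for 8 of the 10 genes, all but Tfap2c and Hand1. GCCNNNGGC stood in a window of 3 of them, Gata2, Gata3 and Cdx2, and GATAA on either strand in a window of 1, Elf5. The T-box motif GGTGTGA, on either strand, was also in a window of Elf5 alone, against 3.33% of all windows. The Elf5 window with both motifs and the Gata2 window with GCCNNNGGC precede starts 11970 and 4773 bases from the genes' 5′ ends. The 8 genes had 12 windows, so counts per gene are not on the scale of percentages per window. The Gata2, Gata3 and Cdx2 windows with GCCNNNGGC were 74.0%, 70.0% and 55.2% G or C, against a median of 52.4%. Nothing is read from these counts. A match of letters is not a binding site, and no match says nothing about the factor.

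Of the 10 genes, each represented by the brightest of its probe sets, 3 were higher by 2-fold or more in knockdown cells (Gata3, Mcpt8 and Pgf) and 0 were lower. Over all named genes 1.59% were higher and 3.85% were lower at that threshold, a background from which nothing is read because the genes were picked with these ratios known. The median log2 ratio of knockdown over control was 0.15 for the 10 genes and -0.07 for all named genes. Counted as probe sets, 4 of 19 were higher by 2-fold or more and 0 were lower, where 1.45% and 3.28% of all probe sets were. The larger differences were thus few: 14 probe sets of the other 6 genes had log2 ratios between -0.53 and 0.23. Averaging all probe sets of a gene brought Eomes past the threshold too, for 4 genes.

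**Figure D1:**
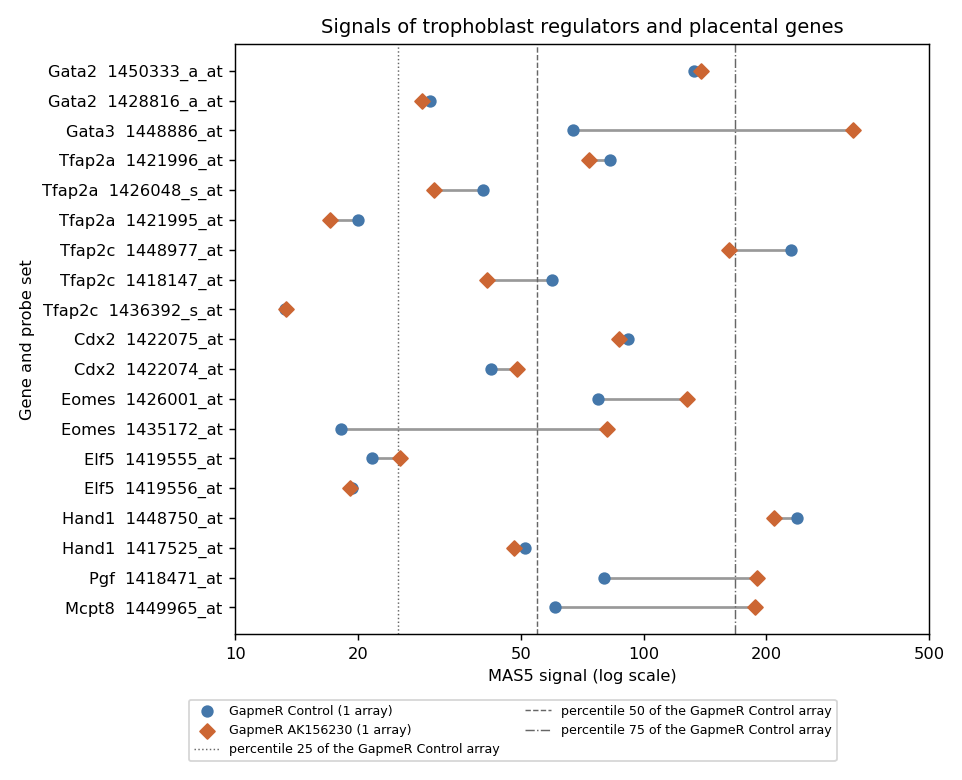
MAS5 signal (log axis) of each of the 19 probe sets of the 10 genes, with a circle for the control array, a diamond for the knockdown array and a line joining them; vertical lines mark percentiles 25, 50 and 75 of the control array. The long lines are those of Gata3 (67.3 to 325.1), Eomes (18.2 to 81.51 at its dim probe set), Pgf (79.91 to 190.09) and Mcpt8 (60.55 to 187.16), and the other probe sets lay within 2-fold.

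Values are MAS5 signals, the Affymetrix summary of a probe set on a linear scale, scaled by the authors for each array. The median probe set had a signal of 54.8 in control cells and 50.95 in knockdown cells, and the 25th percentiles were 25.03 and 23.56. No detection calls come with the table, so a signal under these levels is called dim here and its ratio is uncertain. Signals of different probe sets are not on a common scale and are compared only between the arrays. As a measure of how well probe sets of a gene agree, the 2 brightest probe sets of each of 5113 genes were compared. Only probe sets at or above the median of the array on which they were brighter entered. The SD of their disagreement in log2 ratio was 0.276 for a single probe set, and it does not describe dimmer ones.

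The GATA factors parted ways. Gata3, at chr2:9857078-9887953, had a signal of 67.3 in control cells and 325.1 in knockdown cells, 4.83-fold higher, a log2 ratio of 2.27. The control signal lay at percentile 55.9 of its array and the knockdown signal at percentile 85.5, so neither was dim. Gata3 ranked 28 from the highest of the 18193 named genes. It is read by a single probe set, 1448886_at, so its ratio has no second reading on the array. Gata2, at chr6:88193891-88207032, had signals of 132.64 and 138.55 at its brighter probe set, a log2 ratio of 0.06. Its other probe set was not far above the 25th percentile, with 29.92 and 28.71 and a log2 ratio of -0.06.

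Both AP-2 genes lay within 2-fold at every probe set. Tfap2c, at chr2:172545678-172558622, had a signal of 230.35 in control cells and 162.15 in knockdown cells, a log2 ratio of -0.51. A second probe set read 59.73 and 41.33, a log2 ratio of -0.53, and the third was dim on both arrays at 13.27 and 13.31. The first 2 readings of Tfap2c were thus alike in size. Tfap2a, at chr13:40713802-40738238, had signals of 82.95 and 73.65 at its brightest probe set, a log2 ratio of -0.17. The other readings were -0.40 (40.44 and 30.61) and -0.22 (19.98 and 17.1) on the log2 scale. All 3 readings of Tfap2a were below 0, at levels from dim to a little above the array's median.

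Eomes was the T-box gene of the set, and its 2 probe sets did not give the same size of change. Eomes lies at chr9:118478186-118486132. Its brighter probe set, 1426001_at, had a signal of 77.24 in control cells and 127.46 in knockdown cells, 1.65-fold higher, a log2 ratio of 0.72. Its other probe set, 1435172_at, had signals of 18.2 and 81.51, 4.48-fold higher, a log2 ratio of 2.16. Both were higher in knockdown cells, but only the second was past 2-fold. The control signal of that probe set was dim, at percentile 15.4 of its array. With every signal under the 25th percentile of its array set to that percentile its log2 ratio was 1.70, and with 24.3 (the 25th percentile over both arrays) added to each signal, an offset, it was 1.32. The mean of both probe sets was 1.44.

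The homeodomain gene Cdx2, at chr5:147300900-147307249, differed little between the arrays. It had a signal of 91.53 in control cells and 87.25 in knockdown cells, a log2 ratio of -0.07. Its dimmer probe set read 42.4 and 49.01, a log2 ratio of 0.21. The sign of the brighter reading turned with scaling, to 0.04 with both arrays scaled to the same median. Elf5, an ETS factor gene at chr2:103412098-103450989, was dim at both probe sets. Its signals were 21.56 and 25.36 at one and 19.3 and 19.07 at the other, with log2 ratios of 0.23 and -0.02. Elf5 RNA was thus not distinguished from the dim end of the array in control cells. Hand1, a basic helix-loop-helix factor gene at chr11:57828713-57832147, had signals of 238.05 and 208.49, a log2 ratio of -0.19. Its second probe set had signals of 51.2 and 48.15, a log2 ratio of -0.09. Hand1 was read well above the array's median in both cultures at its brighter probe set.

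Both genes for secreted proteins had higher signals in knockdown cells. Pgf, at chr12:85166637-85177785, had a signal of 79.91 in control cells and 190.09 in knockdown cells, 2.38-fold higher, a log2 ratio of 1.25. Mcpt8, at chr14:56082163-56085499, had signals of 60.55 and 187.16, 3.09-fold higher, a log2 ratio of 1.63. Their knockdown signals lay at percentiles 77.7 and 77.4 of the array, against 60.1 and 52.9 in control cells. Each gene is read by 1 probe set, 1418471_at and 1449965_at. Among the named genes Mcpt8 ranked 74 and Pgf 161 from the highest ratio.

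**Figure D2:**
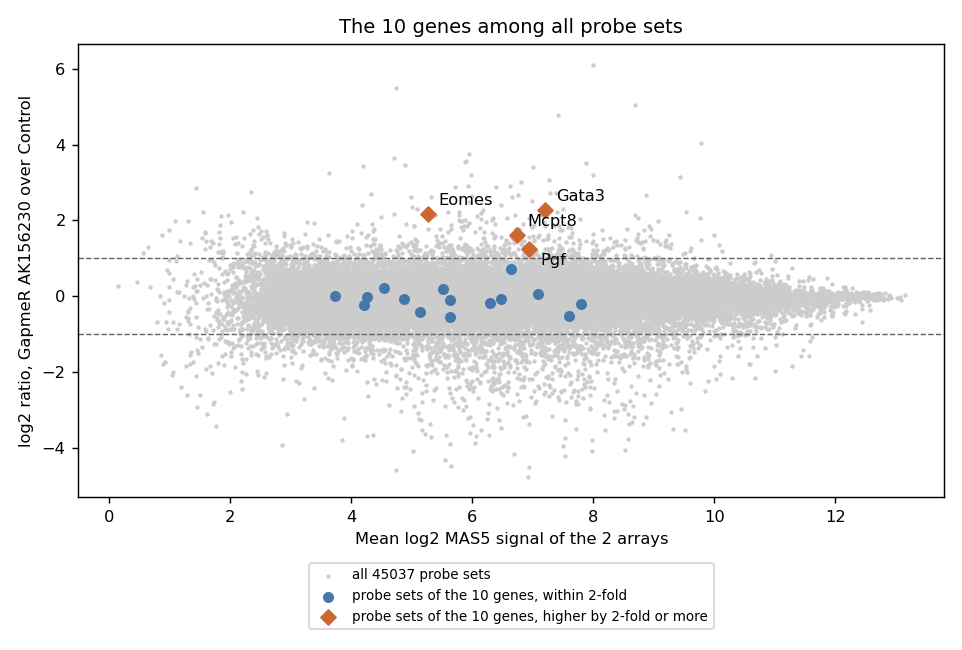
log2 ratio of knockdown over control against the mean log2 MAS5 signal for all 45037 probe sets (grey) and the 19 probe sets of the 10 genes, with dashed lines at 2-fold. Gata3, Mcpt8 and Pgf lie in the middle of the signal range at log2 ratios of 2.27, 1.63 and 1.25, and the Eomes probe set at 2.16 lies further to the left, where signals are dimmer.

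Brightness matters for such ratios, so the background was also read by signal. All probe sets were split into 4 equal classes by mean log2 signal, from class 1 (dimmest) to class 4. Gata3, Mcpt8 and Pgf fell in class 3, in which 1.75% of probe sets were higher by 2-fold or more. The Eomes probe set past 2-fold fell in class 2, in which 0.933% were. Of the 19 probe sets, 8 were below the median on both arrays and 3 of these were below the 25th percentile on both. The 8 included all probe sets of Elf5. The scaling of the arrays changed little here: with both arrays scaled to the same median every log2 ratio was 0.11 higher, and Gata3, Mcpt8 and Pgf were past 2-fold under each scaling tried and with the offset. Genomic spans of the 10 genes ran from 3.34 kb (Mcpt8) to 38.9 kb (Elf5), with a median of 12 kb against 20.2 kb for named genes with a position.

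**Figure D3:**
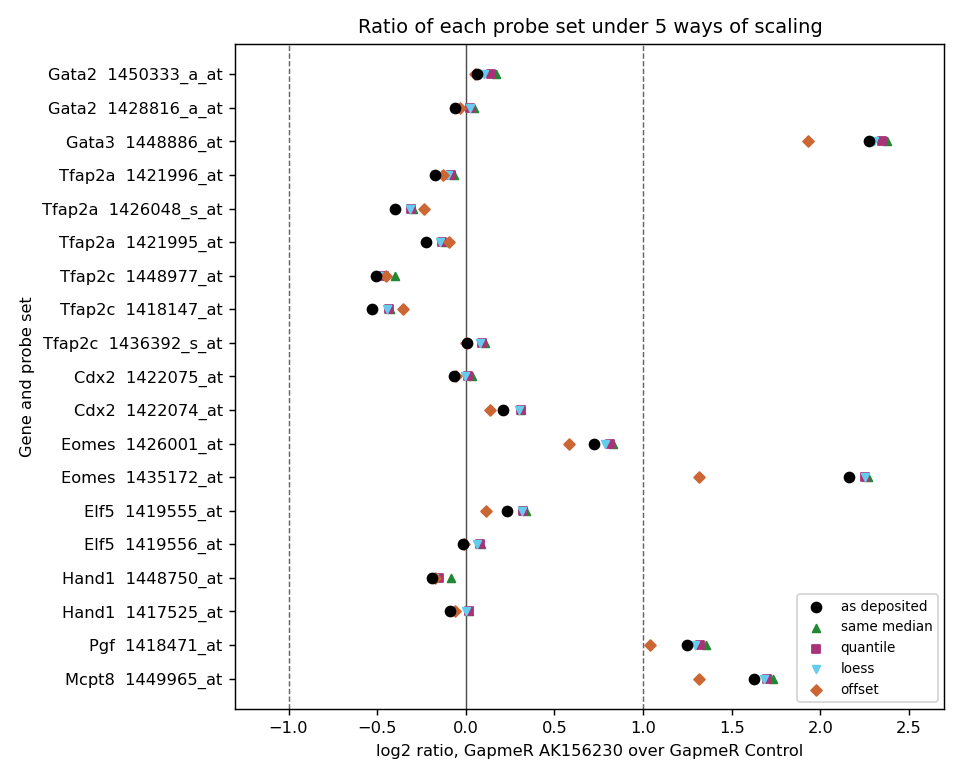
log2 ratio of knockdown over control for each of the 19 probe sets on the signals as deposited (black), with both arrays scaled to the same median, after quantile normalization, after loess correction and with an offset of 24.3 added to every signal; dashed lines mark 2-fold. Gata3, Pgf, Mcpt8 and the second Eomes probe set lie to the right of 1 under all 5, and the offset pulls the Eomes probe set from 2.16 to 1.32.

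Pgf acts together with its relatives and their receptors, and these did not share one direction. Of the 9 other VEGF ligand and receptor genes, 2 passed 2-fold upwards and 1 downwards, and the median log2 ratio was -0.26. Flt4, the receptor of VEGFC and VEGFD, had signals of 86.03 in control cells and 242.65 in knockdown cells, 2.82-fold higher, although its second probe set had a log2 ratio of 0.37 and the mean of both was 0.93. Kdr, the main receptor of VEGFA in endothelium, had signals of 44.54 and 90.91, 2.04-fold higher, and its log2 ratio of 1.03 was 0.74 with the offset. Vegfd was 2.45-fold lower, with 621.79 and 253.94, and its 3 probe sets had log2 ratios from -1.51 to -1.29.
Flt1, the receptor of PGF itself, had signals of 580.18 and 317.72, a log2 ratio of -0.87, within 2-fold. Its 4 probe sets ranged from -0.87 to -0.31. Vegfa (309.12 and 258.39), Vegfb (294.86 and 210.72) and Vegfc (642.81 and 636.22) had log2 ratios of -0.26, -0.48 and -0.01. Among the neuropilins, Nrp1 had a log2 ratio of -0.08, and its 4 probe sets ranged from -0.08 to 0.55. Nrp2 had a log2 ratio of -0.37, but its 4 probe sets ranged from -1.78 to -0.09, and 1 of them was past 2-fold. Pgf was the sole ligand of the family higher by 2-fold or more on these arrays.

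**Figure D4:**
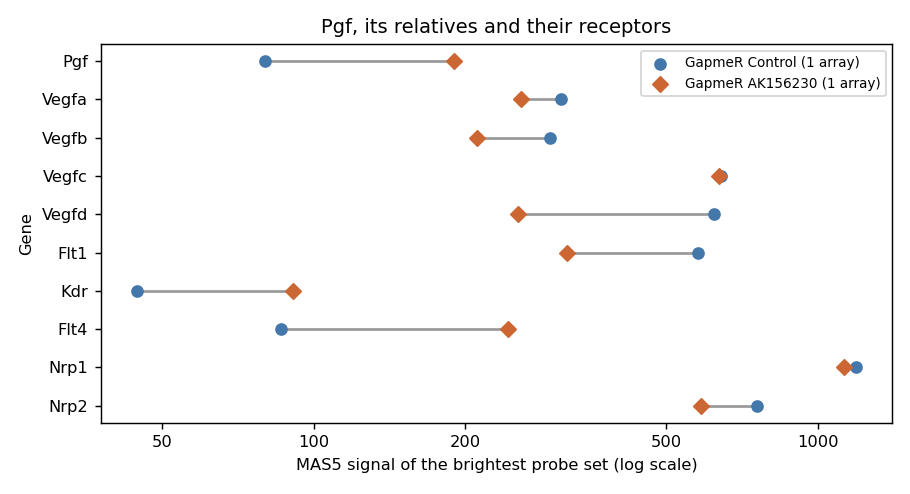
MAS5 signal (log axis) of the brightest probe set of Pgf, the other VEGF ligand genes and their receptor genes, with a circle for the control array and a diamond for the knockdown array. Pgf, Kdr and Flt4 are to the right in knockdown cells, and Vegfd (621.79 to 253.94) and Flt1 (580.18 to 317.72) to the left.

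None of the other GATA and AP-2 genes followed Gata3 past 2-fold. Gata1, Gata4, Gata5 and Gata6 had log2 ratios of -0.62, -0.07, -0.25 and -0.28 at their brightest probe sets, and the highest of any was 0.68, at the second of Gata4, with Gata1 and Gata5 below the median on both arrays. The GATA cofactor gene Zfpm2, also called Fog2, had signals of 165.52 in control cells and 35.64 in knockdown cells, 4.64-fold lower, but its second probe set had a log2 ratio of -0.48. Zfpm1, Lmo2, Tal1 and Ldb1, which encode other partners of GATA factors, had log2 ratios of 0.10, -0.38, -0.10 and 0.54. Of the 8 measured AP-2 genes and partners beyond the pair described, 0 were past 2-fold in either direction at their brightest probe set. Cited2, a coactivator of AP-2 factors, had signals of 799.92 and 1344.29, a log2 ratio of 0.75, and its second probe set was past 2-fold at 1.03. Kctd15, an inhibitor of TFAP2A, had signals of 395.84 and 227.33, a log2 ratio of -0.80. Tfap2b and Tfap2d were dim on both arrays.
The families of the remaining factors held 1 gene past 2-fold. Of 6 ELF and ESE genes and 15 CDX and T-box genes 0 were past 2-fold at their brightest probe set, though 1 of 29 CDX and T-box probe sets was, a further one of Mga at a log2 ratio of 1.31. Of 7 genes for HAND and TWIST factors and E proteins 1 was lower, Twist2, a mesenchymal relative of HAND1, at 2.07-fold (1024.98 and 496.17), and its log2 ratio of -1.05 was -0.94 with arrays scaled to the same median.

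The measured genes that mark differentiated trophoblast were mostly dim in both cultures. Of 23 listed genes of the placental prolactin family, hormones made by trophoblast, 17 were measured. Prl2c2, Prl2c3, Prl3b1, Prl3d1, Prl3d2 and Prl3d3 were not, so nothing is said of them here. Of the 17 measured genes 16 were below the median on both arrays. The exception was Prl3a1, with a signal of 123.98 in control cells and 329.19 in knockdown cells, 2.66-fold higher. The list had 2 genes higher and 2 lower by 2-fold or more, and its median log2 ratio was -0.01. Of 13 pregnancy-specific glycoprotein and CEACAM genes 12 were below the median on both arrays and 0 were past 2-fold, though 3 of their 22 probe sets were lower by 2-fold or more, all of them dim further probe sets of Ceacam11. Of 9 syncytiotrophoblast and other placental genes 7 were below the median on both arrays and 0 were past 2-fold.
Of 18 markers listed for trophoblast as a cell type 12 were measured, and these were the genes of the list of placental cathepsins and Tpbp genes. Prl3d1, Prl3b1, Prl2c2, Gcm1, Syna and Synb were not measured, so this reading rests on that list alone. Of the 12 measured markers 10 were below the median on both arrays. Past 2-fold were 1 upwards, Cts7 (6.89 and 14.58), and 1 downwards, Ctsm (10.83 and 3.78), both too dim for a ratio. The summed signal of the 12 was 1069 in control cells and 805.9 in knockdown cells. A summed signal is set only against the same sum on the other array, and bright probe sets weigh most in it. Ctla2a and Ctla2b, which leukocytes also express, were the measured markers above the median, with log2 ratios of -0.52 and -0.41. Their signals, 773.2 and 540.59 for Ctla2a and 120.95 and 90.78 for Ctla2b, made up most of both sums. The lower sum in knockdown cells thus rests on these genes. Tpbpa, which marks spongiotrophoblast and is named here after its values were seen, had signals of 24.18 and 17.18, and its 3 probe sets had log2 ratios from -0.49 to 0.30. The name of the gene set thus refers to what most of its genes are known for, while Mcpt8 is described above from basophils alone. Most of the measured markers of trophoblast as a cell type were dim in both cultures.

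Of 13 measured trophoblast stem cell and lineage factors beyond the 10 genes, 0 were past 2-fold, and their log2 ratios ran from -0.83 to 0.94 with a median of -0.02. A further probe set of one of them, Ascl2, had a log2 ratio of 1.27. Of 7 simple epithelial genes that trophoblast expresses, with a median log2 ratio of 0.07, 0 were lower and 2 were higher by 2-fold or more. The higher ones were the keratin genes Krt18 (126.94 in control cells and 298.63 in knockdown cells, 2.35-fold) and Krt19 (128.55 and 268.77, 2.09-fold, with a log2 ratio of 0.94 with the offset). The rest of the list, Krt7, Krt8, Cdh1, Cdh3 and Epcam, had log2 ratios of 0.16, 0.07, 0.05, -0.46 and -0.52. Over the 13 lists of placental genes and gene families together, 137 genes were measured, of which 9 (6.57%) passed 2-fold upwards and 6 (4.38%) downwards, against 1.59% and 3.85% of all named genes. The median log2 ratio was -0.07, the same to 2 decimals as that of all named genes. The lists were chosen with earlier results of these data known, so nothing is read from these shares.

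**Figure D5:**
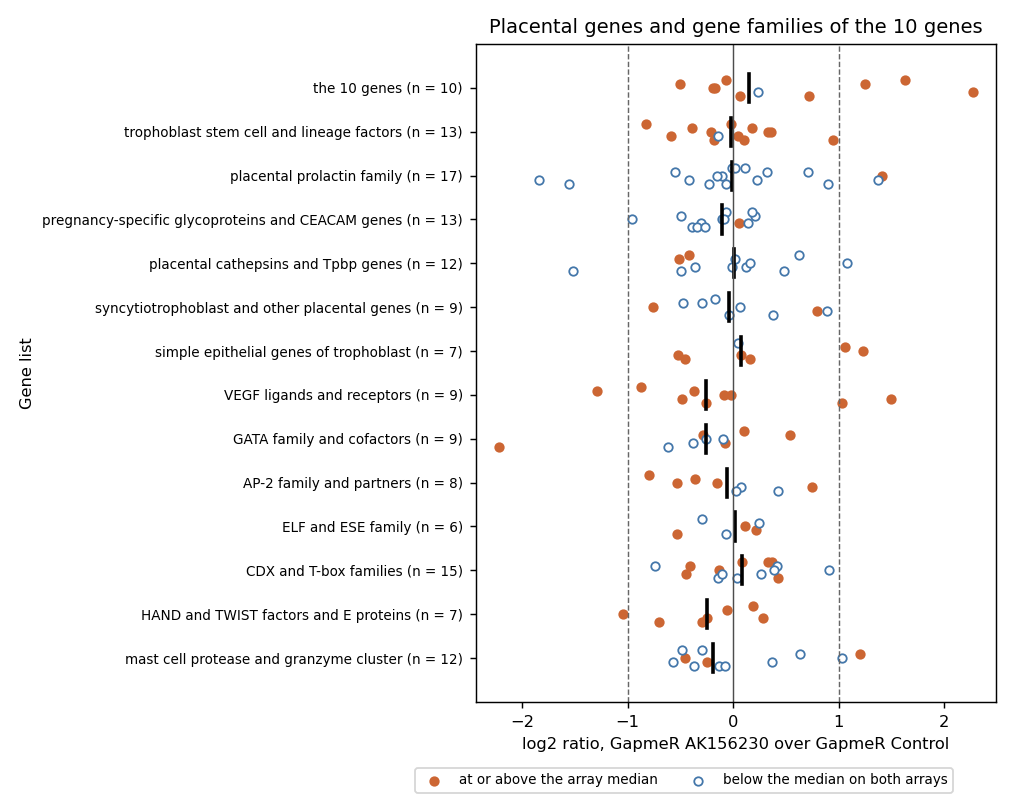
log2 ratio of knockdown over control for the brightest probe set of each gene, for the 10 genes and the 13 lists; filled points had a signal at or above the median of the array on which they were brighter, open points were below it on both arrays, black bars are medians and dashed lines mark 2-fold. The prolactin, glycoprotein and cathepsin lists are made mostly of open points, and the medians lie between -0.26 and 0.15.

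Mcpt8 lies in a cluster of mast cell protease and granzyme genes on chromosome 14, most of which were dim. Of 12 other measured genes of the cluster 9 were below the median on both arrays, 2 were higher by 2-fold or more and 0 were lower, with a median log2 ratio of -0.19. The higher genes were Gzme, a granzyme gene, with signals of 31.8 in control cells and 73.13 in knockdown cells (2.30-fold, and a log2 ratio of 0.80 with the offset), and Gzmd, whose signals of 2.54 and 5.18 were too dim for a ratio. Gzme lies 32.1 kb from Mcpt8 and Gzmd 44.1 kb. Mcpt4 and Mcpt2, at 19.9 and 37.5 kb and named after their values were seen, had log2 ratios of -0.45 and -0.24.

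Markers of other cell types in which the 10 genes are known were set beside these results. Of 8 measured mast cell and basophil markers 6 were below the median on both arrays, and their summed signal was 268.9 in control cells and 224.8 in knockdown cells. The 1 marker past 2-fold was Ms4a2, a subunit of the IgE receptor, which was 2.58-fold lower (57.51 and 22.32), while its second probe set had a log2 ratio of 0.30. Leukocyte markers summed to 253.2 and 208.2, and T and NK cell markers, relevant to Gata3 and Eomes, to 376.8 and 349.2, with 0 of 6 and 0 of 8 past 2-fold. Of the 8 T and NK cell markers 2 had log2 ratios above 0, and 6 were below the median on both arrays. Klrd1, below it at 18.01 and 34.17 and named after its values were seen, had a log2 ratio of 0.92. It was 1.03 with both arrays scaled to the same median. Endothelial markers summed to 270.1 and 281, with 0 of 8 past 2-fold. Keratinocyte markers summed to 192.7 and 222.3 and neural crest markers to 247.7 and 209, with 0 of 5 and 0 of 3 past 2-fold.
Gut epithelium markers summed to 131.9 and 174.8 and pluripotent cell markers to 128.2 and 108.8, with 0 of 5 past 2-fold in each. Cardiomyocyte markers summed to 146.9 and 167, and Myh6, at 4.67 and 10.97 and too dim for a ratio, was the 1 of 5 past 2-fold. No marker on these lists was at the lowest value of the table, 1, on either array. The labelled cell type was read plainly: all 10 fibroblast markers were above the median, and their summed signal was 32737 in control cells and 22223 in knockdown cells. Of these 4 were lower by 2-fold or more, Pdgfra (3.67-fold), Col3a1 (2.95-fold), Pdgfrb (2.76-fold) and Lum (2.24-fold), and 0 were higher. Over all named genes 3.85% were lower at that threshold. Counted as probe sets, 10 of 20 of the fibroblast markers were lower and 0 were higher, where 3.28% of all probe sets were lower. The part of the difference in fibroblast markers in the ratios of Gata3, Eomes, Pgf and Mcpt8 was not tested.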

How the data were processed

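RNA of MEFs transfected with GapmeR Control or GapmeR AK156230 was hybridized to 1 array each. The authors deposited MAS5 intensity values per probe set, on a linear scale and scaled per array, with a version and target that were not stated in the sources used here. The methods name a porcine array, while the labels give mouse RNA and the identifiers match the mouse platform annotation, which was used. Of 45037 probe sets, 34945 had 1 gene symbol, 932 several and 9160 were not listed; symbols were updated through Entrez IDs, and positions are from RefSeq (GRCm38.p6). Genes of the lists without such a probe set were not analysed here.

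log2 ratios were computed on the signals as deposited, without offset. The threshold was 2-fold, as in the methods, whose SAM test needs several arrays per group, so no test was run. Precision is limited by the number of arrays. Of several probe sets of a gene, the brightest by mean log2 signal stood for it. The 10 genes, the 13 gene lists and the 10 cell type marker lists (with trophoblast markers beside them) were chosen with earlier results of these data known. All probe sets of the 10 genes are given; from each list up to 4 genes with the largest ratios past 2-fold, not below the median of the array, were named, all genes of the VEGF, GATA and AP-2 lists could be, and a few named outside this rule were chosen after their values were seen. Alternatives were scaling to the same median, quantile normalization, loess (span 0.3), an offset of 24.3, filters at percentiles 25, 50 and 75, thresholds of 1.5-fold and 3-fold, averaging the probe sets of each gene, leaving out _x_at and _s_at probe sets and, added after seeing the data, setting signals below percentile 25 to it. The counting and scaling steps were tested on simulated data. Python 3.11.15, numpy 2.4.6, pandas 2.3.3, statsmodels 0.14.6 and matplotlib 3.10.9 were used.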

Additional observations from a re-analysis of the deposited data

How the results depend on the processing

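No alternative changed the sign of a member past 2-fold. The count of the 10 genes higher by 2-fold or more was between 2 (threshold of 3-fold) and 4 (threshold of 1.5-fold, or averaging the probe sets of each gene) over 12 alternatives, that of probe sets between 3 and 5 over 11, and 0 were lower under each of them. The median log2 ratio of the 10 genes, 0.15 as deposited, was 1.25 when only the 5 genes at or above percentile 75 of the array were kept, and between 0.04 and 0.25 under the others. Gata3, Pgf and Mcpt8 passed that filter only through the knockdown array, where they were higher. The filter itself thus fixed the value of 1.25 and kept these genes in the counts, so nothing rests on either. The second Eomes probe set likewise passed the filters at percentiles 25 and 50 only through the knockdown array. The probe set counts under these filters are thus no check on it. With the offset the log2 ratio of Gata3 was 1.93, that of Mcpt8 1.32 and that of Pgf 1.04, the value nearest the threshold. Scaling both arrays to the same median moved the median of all named genes to 0.03, a shift of 0.11. Dim signals limit Elf5, the dimmest probe sets of Tfap2a and Tfap2c and the control reading of the second Eomes probe set. No paired analysis was possible because each condition has 1 array, and no replicate could be left out.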

Other observations

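Genes within 200 kb of Gata3, Eomes and Pgf were read for their own values. Of 5 named neighbours of Gata3, 2 of Eomes and 12 of Pgf, 0 were past 2-fold in either direction. Their log2 ratios ran from 0.04 to 0.69 around Gata3, from -0.54 to 0.53 around Eomes and from -0.78 to 0.47 around Pgf. 4930412O13Rik, which overlaps Gata3, was dim on both arrays, at 10.28 in control cells and 16.57 in knockdown cells.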
